A study of Mus musculus with 15 samples.

Results

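The genes described here belong to mitogen-activated protein (MAP) kinase signaling and were chosen by name, with earlier results of these data known. They are the p38 kinases Mapk14 and Mapk11, the p38 substrate kinase Mapkapk2, the upstream MAP4K kinases Map4k1, Map4k2 and Map4k4, and the phosphatases Dusp4 and Phlpp1. Of these 8 genes, 7 were among the 561 genes counted with the nanoString nCounter Mouse Immunology panel, and Dusp4 was not analysed here. Of the 7, Mapk14, Mapkapk2, Map4k1, Map4k4 and Phlpp1 averaged 20 or more counts per sample and were tested, as 5 of 269 genes tested in all. The counts came from RAW 264.7 macrophages, named RAW in the labels, an established mouse macrophage-like line that grew from a virus-induced tumor. All cells, sham group included, received 1 µg/ml lipopolysaccharide (LPS, the Toll-like receptor 4 ligand of Gram-negative bacteria) together with extracellular vesicles (EVs) for 24 hours. The EVs were pelleted from plasma of female C57BL/6J mice of 6 to 8 weeks of age, either sham mice or mice taken 3 or 7 days after whole body ionizing radiation (WBIR) at 2 or 9 Gy. The 15 samples form 5 groups of 3, named sham EVs, 2 Gy day 3 EVs, 2 Gy day 7 EVs, 9 Gy day 3 EVs and 9 Gy day 7 EVs.

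p38 kinases are stress-activated MAP kinases that are switched on by a chain of kinases below Toll-like and cytokine receptors. In macrophages given LPS, p38α (Mapk14) activates MK2 (Mapkapk2), which inactivates the mRNA-destabilizing protein tristetraprolin and so prolongs the life of AU-rich mRNAs such as those of TNF and IL-6. The MAP4K kinases sit at the top of such chains and feed mainly into the JNK branch. Dual-specificity phosphatases such as DUSP4 switch MAP kinases off, while PHLPP1 removes activating phosphates from AKT and protein kinase C. These proteins are regulated largely by phosphorylation, which mRNA counts do not measure.

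The 9 Gy day 3 libraries stood apart in depth, at 43176 to 87899 total counts against 453178 to 837995 in the other 12 samples. Replicates 1 and 2 of that group carry a day label of 7 but are titled as day 3, and they were placed by title. The labels and the study's methods also differ in the number of EVs per exposure (30000000 and 10000000) and in the lysis reagent. Counts were divided by a factor per sample from 14 housekeeping genes of the panel, and such values are called scaled counts below. The panel's macrophage markers were present, with summed scaled counts of 7849 to 11423 with sham EVs and 5376 to 7037 in the 9 Gy samples. The highest sum in any sample was 185 for the T cell markers, 66.2 for the B cell markers and 35.5 for the NK cell markers. Of these markers in the table, 11 of 11 were above 0 because the lowest deposited count is 1. Of the 7 macrophage markers, 4 were called lower and 1 higher in each 9 Gy group, beside 41.3% and 11.2% of all genes tested at day 3 and 49.1% and 11.9% at day 7. This split depended on the scaling. With TMM scaling 3 were lower and 2 higher at day 3, beside 22.3% and 21.9% of all genes, and 3 and 3 at day 7, beside 28.3% and 27.9%. With total counts 1 was lower and 3 higher at day 3, beside 12.3% and 45.0%, and 0 and 3 at day 7, beside 11.5% and 53.2%. The part of this shift in the results below was not tested. In such bulk samples fewer cells of a kind and less RNA per cell cannot be told apart. The labels do not say whether replicates came from separate cultures, and the study's methods state that samples were run in triplicate. The p-values therefore measure the spread between these samples, which may be technical.

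Among the p38 kinases, Mapk14 did not pass the test in any comparison with housekeeping scaling of the counts as deposited. With sham EVs its scaled counts were 56.0, 36.3 and 60.8. The 2 Gy day 3 group was at 65.9, 33.8 and 23.2. With 2 Gy day 7 EVs they were 55.0, 39.0 and 27.7. These groups overlapped one another, and the 2 Gy day 3 replicates alone spanned the lowest and the highest of the 15 values. In the 9 Gy day 3 group the scaled counts were 29.4, 49.7 and 24.6, from raw counts of 4, 10 and 6, and in the 9 Gy day 7 group they were 39.1, 42.0 and 41.5. Both 9 Gy groups overlapped the sham samples. Scaled to total counts instead, the 9 Gy day 7 samples lay above all sham samples. The log2 fold change of Mapk14 from sham EVs was -0.56 (standard error 0.47, adjusted p = 0.325) with 9 Gy day 3 EVs and -0.32 (standard error 0.33, adjusted p = 0.414) with 9 Gy day 7 EVs, in the quasi-likelihood test of edgeR, adjusted over the 269 genes by the Benjamini-Hochberg method. The sign of both values depended on how samples were scaled, and with each sample left out they ran from -0.94 to -0.31 and from -0.52 to -0.17. Mapk11, the p38β gene, had raw counts of 8, 5 and 6 with sham EVs. They were 15, 4 and 10 in the 9 Gy day 7 group, and 1, 1 and 2 in the shallow 9 Gy day 3 group. Its mean of 6.87 over all samples was under the limit of 20 set for testing. With no such limit its log2 fold changes from sham EVs were 0.12 (standard error 0.72, adjusted p = 0.935) and -0.099 (standard error 0.39, adjusted p = 0.847) at 9 Gy on day 3 and day 7 in edgeR.

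Mapkapk2, which encodes the p38 substrate kinase MK2, rose with the EVs of both 9 Gy groups. Its scaled counts were 2172, 2531 and 1664 with sham EVs. They were 1532, 2035 and 2329 with 2 Gy day 3 EVs, and the 2 Gy day 7 group was at 1533, 2503 and 2915. The sham and 2 Gy samples overlapped. At 9 Gy the scaled counts were 4164, 3394 and 3685 on day 3, and 3292, 3530 and 3408 on day 7. All 6 of these samples lay above all 9 others. The mean went from 2122 ± 436 (SD, n = 3) with sham EVs to 3748 ± 389 (SD, n = 3) at day 3 and 3410 ± 119 (SD, n = 3) at day 7, fitted folds of 1.77 and 1.61. On the log2 scale the changes were 0.82 (standard error 0.23, adjusted p = 0.00854) and 0.68 (standard error 0.22, adjusted p = 0.0163) in edgeR. The call at day 7 was lost without sham EV replicate 3 (0.54, adjusted p = 0.0775). The call at day 3 was lost when the samples with the conflicting day label were left out or placed at day 7 (0.80 either way). Of 29 alternative settings, 27 called Mapkapk2 at day 3 and 28 at day 7.

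Map4k4 moved the other way, and with housekeeping scaling its change was the largest of the tested members. It encodes HGK, a kinase upstream of JNK. With sham EVs its scaled counts were 295, 191 and 338. At 2 Gy they were 307, 237 and 220 on day 3, and 283, 217 and 188 on day 7. The sham and 2 Gy samples overlapped. At 9 Gy the scaled counts of day 3 were 95.6, 39.8 and 90.2, from raw counts of 13, 8 and 22, and those of day 7 were 82.4, 100.4 and 105, from raw counts of 135, 158 and 180. The 6 samples with 9 Gy EVs all lay below the lowest of the other 9. The mean was 275 ± 75.7 (SD, n = 3) with sham EVs, and at 9 Gy it was 75.2 ± 30.8 (SD, n = 3) on day 3 and 96.0 ± 12.0 (SD, n = 3) on day 7, fitted at 0.271 and 0.350 times the sham level. The log2 changes came to -1.89 (standard error 0.32, adjusted p = 2.18e-04) and -1.52 (standard error 0.26, adjusted p = 2.24e-04) in edgeR. Map4k4 was called in 29 of 29 alternatives at day 3 and in 28 of 29 at day 7. The exception was scaling to total counts, where the value was -0.43 (adjusted p = 0.172) and the samples overlapped the sham samples.

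Map4k1 encodes HPK1, a kinase of blood cells best known for restraining antigen receptor signaling. It rose with both 9 Gy groups' EVs, from low counts. Its scaled counts were 22.4, 25.8 and 21.5 with sham EVs. At 2 Gy they were 26.1, 27.9 and 24.1 on day 3, and 25.7, 27.7 and 25.5 on day 7. These 9 samples lay close together, and sham EV replicate 2 fell within the range of the 2 Gy samples. The 9 Gy EVs of day 3 gave scaled counts of 22.1, 44.7 and 49.2, from raw counts of 3, 9 and 12, and those of day 7 gave 34.2, 45.8 and 33.9, from raw counts of 56, 72 and 58. Day 3 replicate 1 lay inside the sham range, while the 3 day 7 samples lay above all sham and 2 Gy samples. The mean was 23.2 ± 2.25 (SD, n = 3) with sham EVs, 38.7 ± 14.5 (SD, n = 3) at day 3 and 37.9 ± 6.78 (SD, n = 3) at day 7. The fitted log2 fold changes from sham were 0.81 (standard error 0.26, adjusted p = 0.0415) and 0.70 (standard error 0.19, adjusted p = 0.00626) in edgeR. The day 3 call did not hold in DESeq2 with housekeeping size factors (0.82, adjusted p = 0.0544), or in edgeR without replicate 2 (0.73, adjusted p = 0.142) or replicate 3 (0.60, adjusted p = 0.267) of the 9 Gy day 3 group. It did not hold either without sham EV replicate 1 (0.78, adjusted p = 0.0614) or replicate 3 (0.75, adjusted p = 0.0787). Of 28 alternatives, 19 called Map4k1 at day 3 and 28 at day 7. The day 3 losses not named above were with no filter, with only the groups compared, and with the samples of conflicting day label left out or placed at day 7 (adjusted p between 0.0657 and 0.0828).

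Map4k2, which encodes germinal center kinase, was below the limit for testing with a mean of 18.2 counts. Its raw counts were 11, 25 and 18 with sham EVs. At 9 Gy they were 6, 4 and 1 on day 3, and 32, 38 and 29 on day 7. After scaling, the 9 Gy day 7 samples were at 19.5, 24.2 and 16.9 and the sham samples at 12.3, 23.9 and 16.8. These ranges overlapped.

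Phlpp1 rose with both 9 Gy groups' EVs. With sham EVs its scaled counts were 39.2, 46.8 and 31.8. At 2 Gy they were 30.7, 38.0 and 42.7 on day 3, and 44.9, 41.6 and 48.9 on day 7. The sham and 2 Gy samples overlapped. The 9 Gy EVs of day 3 gave scaled counts of 88.3, 74.5 and 49.2, from raw counts of 12, 15 and 12, and those of day 7 gave 71.4, 86.5 and 53.2, from raw counts of 117, 136 and 91. The 6 samples with 9 Gy EVs lay above the other 9, the lowest of them by little. The mean was 39.3 ± 7.50 (SD, n = 3) with sham EVs, 70.7 ± 19.8 (SD, n = 3) at day 3 and 70.3 ± 16.7 (SD, n = 3) at day 7. The fitted changes, in log2, were 0.80 (standard error 0.28, adjusted p = 0.0284) and 0.84 (standard error 0.22, adjusted p = 0.00485) in edgeR. The day 3 call did not hold without replicate 1 (0.64, adjusted p = 0.113) or replicate 2 (0.73, adjusted p = 0.104) of the 9 Gy day 3 group. The same was so without sham EV replicate 1 (0.80, adjusted p = 0.0538) or replicate 3 (0.66, adjusted p = 0.0874). With both samples of conflicting day label left out or placed at day 7, the day 3 value was 0.32 and the call was lost. Of 28 alternatives, 20 called Phlpp1 at day 3, where it was also lost with no filter and with only the groups compared, and 28 at day 7.

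**Figure D1:**
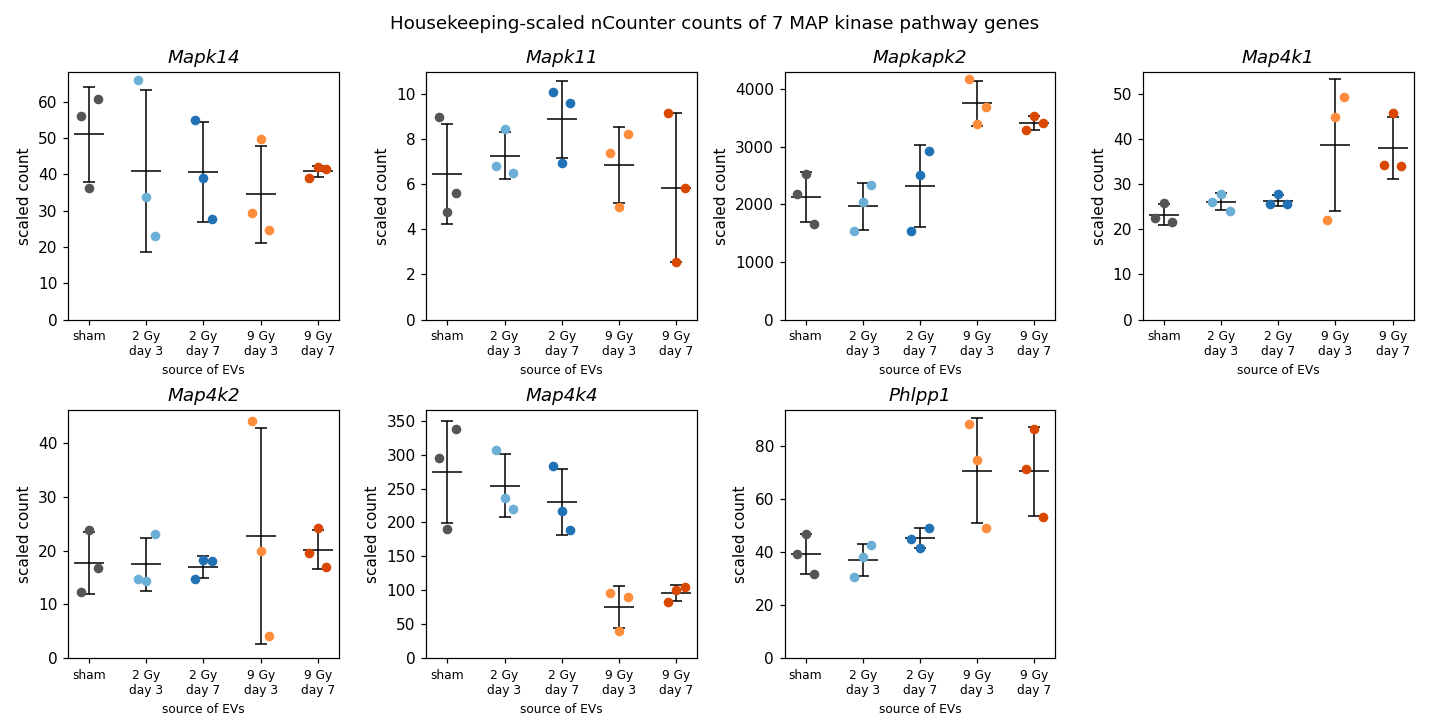
Scaled counts (raw counts scaled to 14 housekeeping genes, linear axes from 0) of the 7 members in the table, by source of the EVs. Points are samples, and bars are the mean ± SD of 3 samples. The 9 Gy samples sit above all others for Mapkapk2 and Phlpp1 and below all others for Map4k4, while Mapk14, Mapk11 and Map4k2 overlap between groups. Scaled to total counts instead, Map4k4 overlaps the sham samples. Under that scaling Mapk14 and Map4k2 at 9 Gy day 7 lie above the sham samples. So does Mapk11 at 9 Gy day 3, from raw counts of 1 to 2.

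Over the tested members, 4 of 5 passed the threshold with 9 Gy day 3 EVs, beside 52.4% of all genes tested. Of these, 3 of 5 were higher, beside 11.2% of all genes tested, and 1 of 5 was lower, beside 41.3%. With 9 Gy day 7 EVs the same 4 members passed in the same directions, beside 61.0% of all genes, 11.9% called higher and 49.1% called lower. With only 5 members these counts are not read as different from the shares of all genes. The members' median log2 fold change was 0.80 at day 3 and 0.68 at day 7, and that of all genes tested was -0.46 and -0.45. From the highest log2 fold change down, Mapkapk2, Map4k1 and Phlpp1 ranked 24, 25 and 26 of 269 at day 3 and 30, 28 and 20 at day 7. Map4k4 ranked 244 and 231. With scaled counts, 3 of 5 members did not overlap the sham samples at day 3, beside 55.8% of all genes, and 4 of 5 did not at day 7, beside 61.7%. Both comparisons share the sham samples, so their likeness is not a second observation.

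The promoters of the 3 members that were higher are shown, as these genes were called in the same direction, with common promoter motifs marked. They are RefSeq windows of GRCm38.p6 from 250 bases before to 50 bases after the annotated start, printed along the gene's strand, and 6 of the 8 members had an entry. Map4k4 and Dusp4 had none. Capitals mark a match on either strand to AP-1 (TGANTCA), the core of the cAMP response element (TGACG), NF-κB (GGG and CC with any 5 bases between) or the GC box (GGGCGG).
Mapkapk2, chr1:131097794-131098093, minus strand: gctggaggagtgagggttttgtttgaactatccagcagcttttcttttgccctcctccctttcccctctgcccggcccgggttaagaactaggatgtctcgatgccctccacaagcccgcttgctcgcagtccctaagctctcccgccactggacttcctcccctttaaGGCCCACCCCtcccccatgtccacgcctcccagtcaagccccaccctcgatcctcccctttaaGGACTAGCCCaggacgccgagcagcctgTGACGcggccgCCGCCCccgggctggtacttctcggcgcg
Phlpp1, chr1:106171619-106171918, plus strand: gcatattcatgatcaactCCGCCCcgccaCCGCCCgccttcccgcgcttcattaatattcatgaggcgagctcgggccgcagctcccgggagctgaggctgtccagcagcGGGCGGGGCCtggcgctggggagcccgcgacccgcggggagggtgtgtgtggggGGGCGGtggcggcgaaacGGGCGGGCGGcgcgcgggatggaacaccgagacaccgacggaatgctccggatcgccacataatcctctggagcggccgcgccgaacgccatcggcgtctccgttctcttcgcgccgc
Map4k1, chr7:28981800-28982099, plus strand, the first of its windows: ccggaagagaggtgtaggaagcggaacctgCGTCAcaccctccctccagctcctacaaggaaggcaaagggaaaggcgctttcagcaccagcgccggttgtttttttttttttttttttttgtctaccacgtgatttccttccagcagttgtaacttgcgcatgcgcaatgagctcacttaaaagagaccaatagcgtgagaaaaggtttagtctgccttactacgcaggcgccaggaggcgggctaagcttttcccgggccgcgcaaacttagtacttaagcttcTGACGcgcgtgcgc

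The Mapkapk2 window held 1 TGACG match, 2 NF-κB matches and 1 GC box. The Phlpp1 window held 6 GC boxes and 1 NF-κB match, which overlaps a GC box, and the Map4k1 window printed held 2 TGACG matches with neither NF-κB nor GC box letters. An E-box (CACGTG), left in lower case, occurred once in that Map4k1 window. None of the 8 windows of the members held the AP-1 letters. Among all 32851 windows of the table, 7.81% held AP-1, 20.8% TGACG, 50.8% NF-κB, 35.7% the GC box and 7.15% the E-box. Map4k1 has a second window in the table (chr7:28982604-28982903), not printed here, which held 5 NF-κB matches and none of the other motifs. Counting both windows of Map4k1, NF-κB was the motif found for all 3 genes, and it is also the most common one among all windows. A match is a description of letters only.

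**Figure D2:**
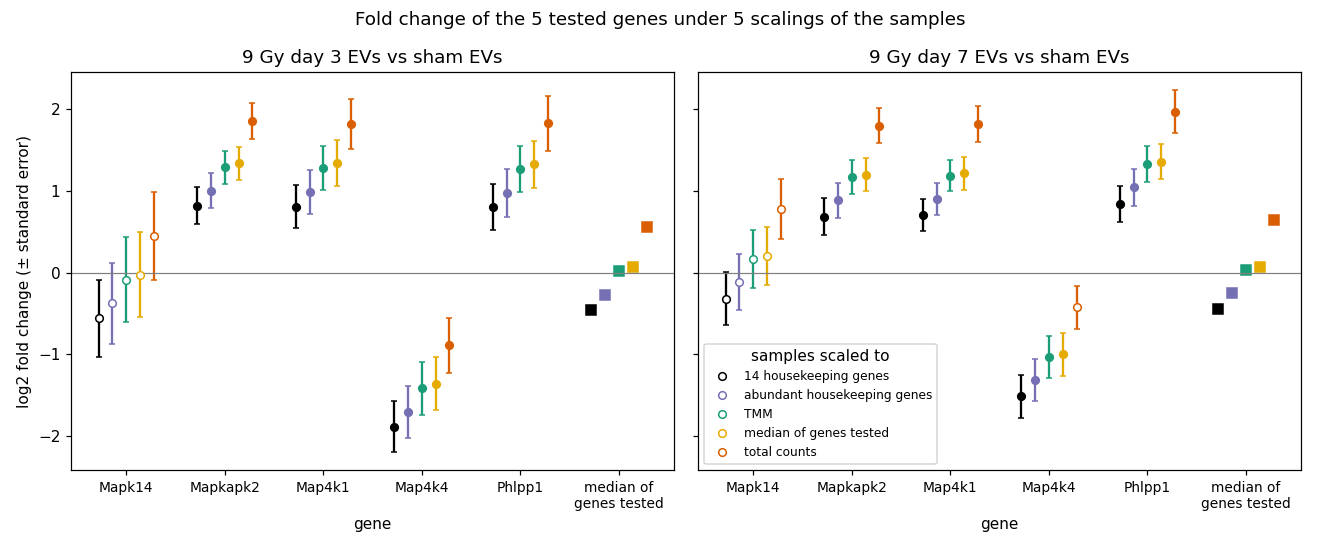
Log2 fold change from sham EVs (± standard error) of the 5 tested members with 9 Gy day 3 EVs (left) and 9 Gy day 7 EVs (right), under 5 scalings of the samples. Filled circles are adjusted p under 0.05, open circles are not, and squares are the median of all genes tested. Mapkapk2, Map4k1 and Phlpp1 are above 0 and Map4k4 is below 0 under every scaling, while Mapk14 lies on both sides.

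The size of every change depended on the scaling, which moved all genes together. Scaled to the housekeeping genes, the median of all genes tested was -0.46 at day 3. The housekeeping genes did not all keep one ratio to each other. Of the 13 that were tested, 3 were called higher and 6 lower at day 3, and 4 and 4 at day 7, relative to their own mean. The highest was the tubulin gene Tubb5, at 1.38 and 1.63, followed by Ppia, which encodes cyclophilin A, at 1.02 and 1.00. The ribosomal protein gene Rpl19 was the lowest, at -0.74 and -0.87. The geometric mean count of the housekeeping genes was 801 to 872 in the 9 Gy day 7 samples against 454 to 545 with sham EVs, while the total counts were 453178 to 617963 against 568097 to 729491. The median of all genes tested at day 3 was 0.01 with TMM scaling, which takes most genes as unchanged, and 0.56 with total counts. Called genes were 30 higher and 111 lower with housekeeping scaling, 59 and 60 with TMM, and 121 and 33 with total counts at day 3. At day 7 they were 32 and 132, 75 and 76, and 143 and 31. Mapkapk2 had log2 fold changes of 1.29 and 1.17 with TMM and of 1.85 and 1.80 with total counts, at day 3 and day 7. The corresponding values of Map4k1 were 1.28 and 1.18 with TMM and 1.81 and 1.81 with total counts. Those of Phlpp1 were 1.27 and 1.33, and 1.83 and 1.97. These 3 genes were called higher under each of these scalings at both days. Map4k4 had -1.42 and -1.04 with TMM and -0.89 and -0.43 with total counts, of which only the last was not called. Mapk14 had -0.09 and 0.17 with TMM and 0.45 and 0.78 with total counts, and none of these was called.

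Ratios of raw counts of members within a sample do not depend on any scaling of samples, and they were compared between samples only, since probes differ in efficiency. The log2 ratio of Mapkapk2 to Map4k4 was 5.02 to 6.42 in the 6 samples with 9 Gy EVs and 2.30 to 3.95 in the other 9, a difference of means of 2.38. The log2 ratio of Map4k1 to Map4k4 was -2.12 to 0.17 against -3.98 to -2.88, a difference of 2.16. Both ends of its 9 Gy range came from day 3 samples. Their raw Map4k1 and Map4k4 counts were 3 and 13 in replicate 1, and 9 and 8 in replicate 2. The 9 Gy day 7 samples were at -1.63 to -1.13. The log2 ratio of Map4k4 to Phlpp1 was -0.91 to 0.98 against 1.94 to 3.41, a difference of -2.38. Mapk14 to Map4k4 also separated the samples, at -1.87 to 0.32 against -3.24 to -2.22, a difference of 1.42. These 4 of the 10 ratios between tested members kept the 9 Gy samples apart from all others, and Map4k4 is in each. Among all ratios of a pair of tested genes, 13801 of 36046 did so, 38.3%. The ratio of Mapkapk2 to Phlpp1, both of which rose, overlapped, at 5.35 to 6.23 with 9 Gy EVs and 5.09 to 5.91 otherwise.

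**Figure D3:**
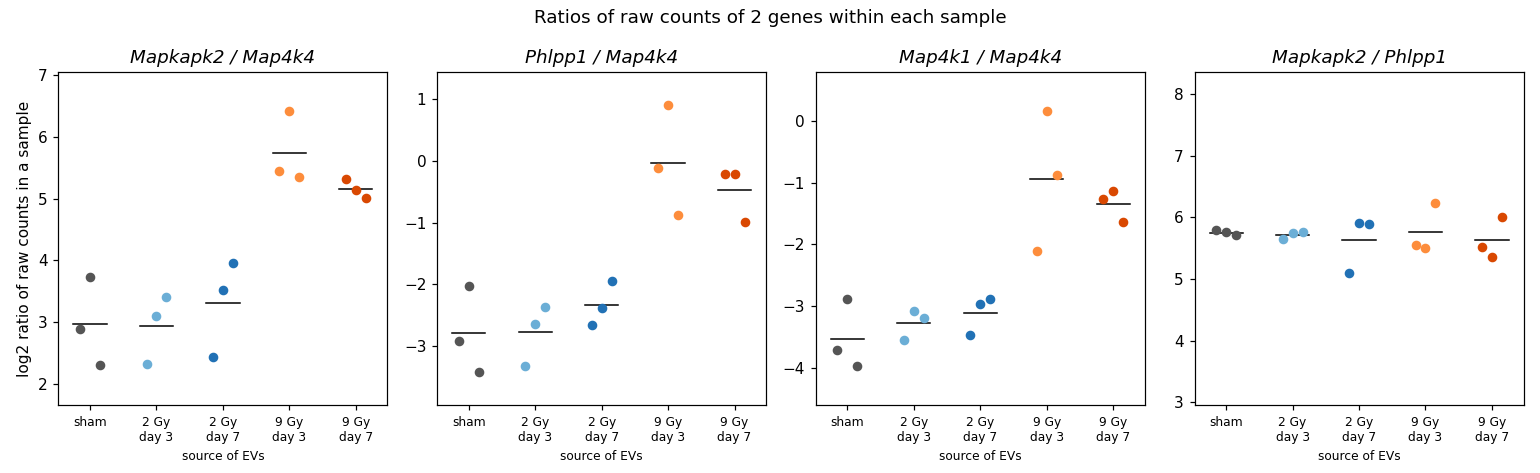
Log2 ratio of the raw counts of a pair of members in each sample, by source of the EVs, in panels that each span the same height. Points are samples and lines are means of 3. In the first 3 panels, which all have Map4k4 as denominator, the 9 Gy samples lie above the other 9, and in the last panel, Mapkapk2 over Phlpp1, they overlap.

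With 2 Gy EVs the members were near the sham level. Of the 5 tested members, 0 were called on day 3 and 0 on day 7 in edgeR, beside 0% of all genes tested in each comparison. At an unadjusted p under 0.05 the counts of members were also 0, beside 2.60% of all genes on day 3 and 0.372% on day 7. DESeq2 with housekeeping size factors gave 0 members in each, beside 0.372% and 0% of all genes. The members' log2 fold changes from sham EVs ran from -0.34 to 0.16 at day 3 and from -0.32 to 0.20 at day 7. No member's 2 Gy samples were separate from the sham samples, beside 13.0% of all genes at day 3 and 4.09% at day 7. These comparisons do not show that the levels were equal, since the standard errors lay between 0.21 and 0.34.

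Set directly against 2 Gy EVs over both days, 9 Gy EVs gave 4 of 5 members past the threshold, beside 67.7% of all genes tested. The fit took samples of both days as independent, though replicate numbers were taken to pair the days within each dose. Its standard errors and p-values may therefore be too small. The 3 higher members stand beside 15.6% of all genes and the 1 lower member beside 52.0%. Mapkapk2 had a log2 difference of 0.74 (standard error 0.16, adjusted p = 0.00100), Map4k1 one of 0.58 (standard error 0.16, adjusted p = 0.00629) and Phlpp1 one of 0.76 (standard error 0.18, adjusted p = 0.00190) in edgeR. That of Map4k4 was -1.52 (standard error 0.20, adjusted p = 1.90e-05), and that of Mapk14 was -0.11 (standard error 0.29, adjusted p = 0.755). The sign of Mapk14 depended on the scaling, and in 2 of 28 alternatives it was called higher, at 1.01 with total counts (adjusted p = 0.0140) and 0.55 with counts under 20 set to 20 (adjusted p = 0.0327). The call of Map4k1 was lost without 9 Gy day 3 replicate 3 (0.48, adjusted p = 0.0854). That of Phlpp1 was lost with both samples of conflicting day label left out (0.52) or placed at day 7 (0.54). Scaled to total counts, Map4k4 was at -0.40 (adjusted p = 0.107).

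No difference of a member between the days on which EVs were taken passed the test. Between day 7 and day 3, 0 members were called within 9 Gy and 0 within 2 Gy, beside 0% of all genes in each, and DESeq2 also called 0 members and 0% of all genes in each. At an unadjusted p under 0.05 there were 0 members, beside 2.23% of all genes within 9 Gy and 1.49% within 2 Gy. With the replicate number as a block and only the groups compared, 0 members were called in either, beside 0% of all genes within 9 Gy and 27 of 269 genes within 2 Gy. Whether the day difference depended on dose was tested as an interaction, which gave 0 members, beside 0% of all genes. With counts under 20 set to 20, which raises low counts most in the shallow 9 Gy day 3 libraries, 2 tested members (Map4k1 and Mapk14) were called between the 9 Gy days, beside 71.8% of all 561 genes, and 1 (Map4k1) for the interaction, beside 65.6%. The fitted day differences within 9 Gy lay between -0.14 for Mapkapk2 and 0.37 for Map4k4, the latter with a standard error of 0.32.

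The other genes of the pathway were taken from lists of receptors and adaptors upstream of p38, of brakes on these receptors, of AU-rich mRNAs regulated through MK2, and of PI3K and AKT genes around Phlpp1. Of 18 PI3K and AKT genes, 2 were in the table and 1 was tested. This was Prkcd, which encodes protein kinase C delta, with log2 fold changes from sham EVs of 0.35 and 0.21 at 9 Gy on day 3 and day 7, neither of them called. It was called higher at both days with TMM scaling (0.81 and 0.70), the median gene (0.86 and 0.73) and total counts (1.37 and 1.33).

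Among the receptors and adaptors, 16 of 25 listed genes were tested. On day 3 of 9 Gy 2 were higher and 5 lower, with a median log2 fold change of -0.14, and on day 7 1 was higher and 6 lower, with a median of 0.08. Of all genes tested, 11.2% were higher and 41.3% lower at day 3, and 11.9% and 49.1% at day 7, and the counts of the lists below with housekeeping scaling stand beside these same shares. List counts with TMM or total counts stand beside the shares given above for the macrophage markers under these scalings. Tnfrsf1b, which encodes the TNF receptor TNFR2, had log2 fold changes of -2.59 and -2.68 (standard errors 0.40 and 0.39), from 1735 ± 433 to 282 ± 130 and 270.1 ± 175 scaled counts (SD, n = 3 each). Cd40, a costimulatory receptor, had -1.57 and -1.37, and Cd14, the LPS co-receptor, had -1.20 and -1.34. The calls of Cd40 were lost with TMM scaling and without sham EV replicate 2, at -1.16 and -0.96. The day 3 call of Cd14 was lost without 9 Gy day 3 replicate 2 (-1.03) or sham EV replicate 3 (-0.93), and both its calls were lost with TMM scaling. Tirap, the bridging adaptor of Toll-like receptors 2 and 4, had -0.66 (not called) and -1.03, and the day 7 call was lost without sham EV replicate 1 (-0.96), sham EV replicate 3 (-0.99) or 9 Gy day 7 replicate 1 (-0.997), and with TMM scaling. Its day 3 value ran from -1.69 to -0.014 with each sample left out, was called at -1.69 without 9 Gy day 3 replicate 1, and was called at -3.13 with the samples of conflicting day label left out. Traf5 was the receptor adaptor called higher at both days, singled out after its values were seen. Its scaled counts were 30.9 ± 6.28, 56.8 ± 18.9 and 45.1 ± 9.47 (SD, n = 3 each) with sham EVs and with the 9 Gy EVs of day 3 and day 7, in this order. The split depended on the scaling, since with TMM 6 were higher and 1 lower at day 3, and 8 and 1 at day 7, and with total counts 9 and 1, and 10 and 1.

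Among the brakes on receptor signaling, 5 of 11 listed genes were tested, of which 3 passed as lower for day 3 and 5 for day 7, with medians of -1.69 and -1.97, and 0 were higher. With TMM scaling 2 and 3 were lower, and with total counts 2 at each day, beside 1 higher at day 3. Il1rn, which encodes the IL-1 receptor antagonist, had log2 fold changes of -2.35 and -2.80 (standard errors 0.58 and 0.59), and without 9 Gy day 3 replicate 3 the first was -3.52. Tollip, an inhibitor of Toll-like receptor signaling, had -2.11 and -1.97 (standard errors 0.17 and 0.16). Socs3, an inhibitor of cytokine receptor signaling, had -1.69 (not called) and -2.39, and Irak3, an inactive kinase that dampens Toll-like receptor signaling, had -0.26 (not called) and -0.85. At day 3 Socs3 was called without 9 Gy day 3 replicate 3 (-3.21) or without sham EV replicate 2 (-2.10). The values of Irak3 turned positive when scaled to total counts, and its day 7 call was lost with TMM (-0.36), as that of Socs3 was with total counts.

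Of the 18 AU-rich mRNAs listed, 14 were tested. On day 3 of 9 Gy 9 were lower and 1 higher, with a median of -1.95, and on day 7 10 were lower and 1 higher, also with a median of -1.95. Mapkapk2 mRNA was higher in the same samples. Il6 had log2 fold changes of -6.10 and -6.02 (standard errors 0.39 and 0.35), and its scaled count went from 3032 ± 1038 with sham EVs to 42.5 ± 12.1 and 46.4 ± 11.0 (SD, n = 3 each). Il1a had -4.47 and -4.64, Il1b -4.53 and -4.52, and Il23a, a subunit of IL-23, -4.32 and -4.61. The values of Il1a and Il1b were smaller in size with replicate 3 of each 9 Gy group than without it. With each sample left out, Il1a ran from -5.85 to -4.02 at day 3 and from -6.11 to -4.23 at day 7. Il1b ran from -6.30 to -4.09 and from -6.11 to -4.08. The gene called higher was Ifnb1, which encodes interferon-β, at 22.2 ± 14.7, 437 ± 265 and 346 ± 173 scaled counts (SD, n = 3 each) with sham EVs and with the 9 Gy EVs of day 3 and day 7, in this order. With TMM scaling 8 were lower and 1 higher at day 3, and 10 and 1 at day 7, and with total counts 6 and 2, and 8 and 3. With the samples of conflicting day label left out, the day 3 calls of Cd40 (-1.67), Cd14 (-0.64), Il1rn (-1.27) and Fcgr1 (-1.34), a macrophage marker, were lost.

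**Figure D4:**
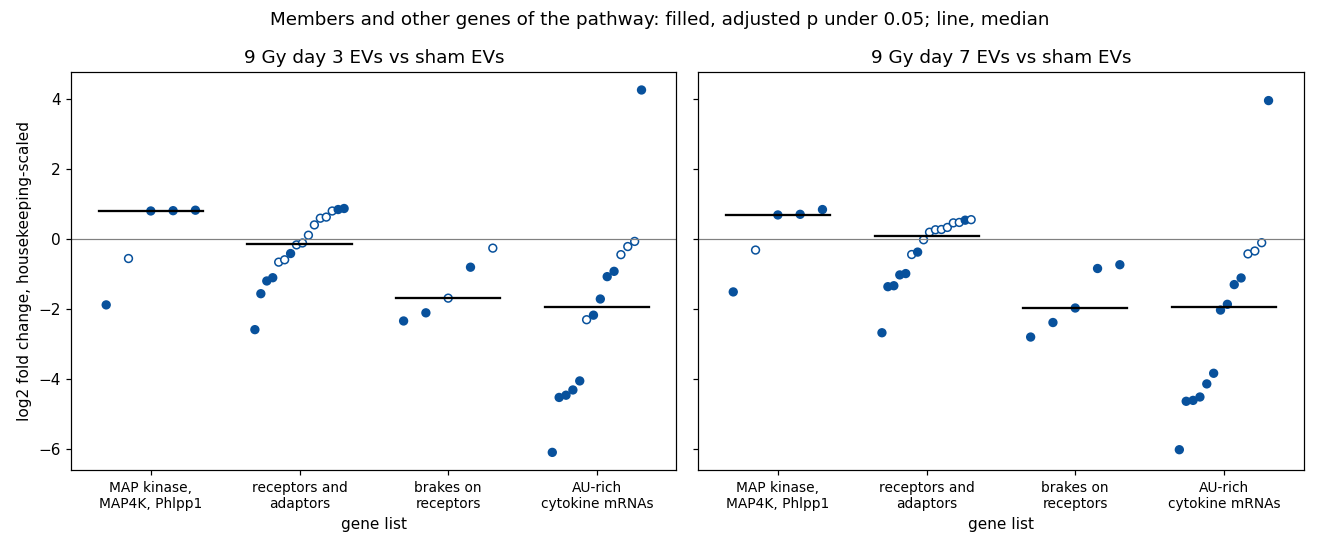
Log2 fold change from sham EVs of the 5 tested members and of the tested genes on 3 lists, with 9 Gy day 3 EVs (left) and 9 Gy day 7 EVs (right), scaled to the housekeeping genes. Points are genes, filled where the adjusted p is under 0.05, and lines are medians. The members' median is above 0, at 0.80 and 0.68, and that of the AU-rich mRNAs is at -1.95 in both panels.

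Other markers of the line moved as well. Fcgr1, an Fc receptor gene, had log2 fold changes of -1.94 and -1.91 and the integrin gene Itgam -1.76 and -1.60, while Csf1r, the receptor of macrophage colony-stimulating factor, was higher, at 2.29 and 1.87. Of the lymphocyte markers, Cd8a had -0.89 and -0.82, and Ms4a1 had -0.10 (not called) and -0.71. Total-count scaling ended the calls of Fcgr1 at both days and of Itgam at day 7. With TMM scaling the calls of Cd8a at both days (-0.42 and -0.33) and of Ms4a1 at day 7 (-0.22) were lost. The signs of Cd8a and Ms4a1 turned with total-count scaling, and their raw counts were at most 175 and 34. The call of Cd8a at day 3 was lost without 9 Gy day 3 replicate 2 (-0.74), and that of Ms4a1 at day 7 without 9 Gy day 7 replicate 2 (-0.58) or sham EV replicate 2 (-0.63).

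Across the 15 samples, the genes whose log2 scaled counts were most like those of each tested member were found by Pearson's correlation, as a description over points that share groups and scaling. For Mapkapk2 they were Mif (r = 0.960) and Ppia (r = 0.959), and for Phlpp1 they were Irgm1 (r = 0.937) and Ifnb1 (r = 0.932). For Map4k4 they were Gm10499 (r = 0.956) and Itgam (r = 0.953), for Map4k1 C1qbp (r = 0.807) and Il1rap (r = 0.695), and for Mapk14 Tbp (r = 0.846) and Tal1 (r = 0.747). Ppia and Tbp are among the housekeeping genes used for scaling. Between members, Mapkapk2 and Phlpp1 had r = 0.836, Mapkapk2 and Map4k4 r = -0.851, Map4k4 and Phlpp1 r = -0.839, and Map4k1 and Map4k4 r = -0.753. The values of Map4k1 with Mapkapk2 (r = 0.565) and with Phlpp1 (r = 0.506) were lower than that of Mapkapk2 with Phlpp1. For Mapkapk2, Map4k4 and Phlpp1 the 9 Gy samples stood apart from the rest, so these values mix differences between groups with those within them.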

How the data were processed

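Counts of 561 mRNAs in 15 samples of RAW macrophages were analysed. The authors deposited raw counts per gene, per the series' value table, and normalized them in nSolver for their own tests. Those normalized values, the control probes and a background level were not used here, and the lowest deposited count was 1. Counts of different probes were not compared in level. The members and gene lists were chosen with earlier results of these data known.

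Counts were divided by each sample's geometric mean over 14 housekeeping genes. The 269 genes that averaged 20 counts or more were tested in one quasi-likelihood fit of the 5 groups (edgeR 4.0.16, R 4.3.3, prior count 0.125), with Benjamini-Hochberg adjustment over these genes and a threshold of 0.05. The standard error is the absolute log2 fold change over the square root of F. Day 3 and day 7 at 2 and 9 Gy were each compared with sham, then 9 with 2 Gy, day 7 with day 3, and their interaction. The code was tested on simulated data. Alternatives were other scalings (TMM, the median gene, total counts, the 10 housekeeping genes averaging 100 counts or more), DESeq2 1.42.0, other count limits and priors, only the groups compared, a replicate block, both treatments of the conflicting day labels, and each sample left out.

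Named genes are all members, the 2 genes most correlated with each tested member, up to 4 genes per list (housekeeping genes included) with the largest change past the threshold with 9 Gy day 7 EVs, and further MAP kinases, which are not reported here. Prkcd and Traf5 lie outside this rule and were named after their values were seen. To see whether replicate numbers pair samples, the deviations from the group means of equally numbered samples were correlated across genes. Over 30 such pairs the correlations ran from -0.66 to 0.78 and 16 were over 0.1. All 3 pairs were over 0.1 between the days within 2 Gy (0.365 to 0.779) and within 9 Gy (0.330 to 0.717), so the numbers were taken to pair these groups only, from the data and not from the labels. Promoter windows came from RefSeq (GRCm38.p6).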

Additional observations from a re-analysis of the deposited data

How the results depend on the processing

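In the 9 Gy day 3 group, raw counts of 3 to 22 for Mapk14, Map4k1, Map4k4 and Phlpp1 limit precision, and its members called were the least stable. Against the 4 members called at day 3, there were 2 with no filter, 2 with only the groups compared, 2 of 2 tested with a mean of at least 100 counts, and 1 with the samples of conflicting day label left out or placed at day 7. Leaving out each sample gave 2 to 4, and 2 was the count when replicate 2 of 9 Gy day 3, or sham EV replicate 1 or 3, was absent. At day 7 and for 9 against 2 Gy, 2 of 2 were called with a mean of at least 100 counts, and leaving out each sample gave 3 to 4. Setting counts under 20 to 20 raised the count from 0 to 2 between the 9 Gy days and from 0 to 1 for the interaction with dose, beside 71.8% and 65.6% of all genes, since low counts are then raised in the shallow libraries. The remaining alternatives kept the counts of members called within 1.5 times. Most counts in this paragraph stand without the share of all genes called under the same setting. Their changes are therefore not read as particular to the members. With the replicate number as a block, the members called stayed at 4 at day 3, and Mapkapk2 had a log2 fold change of 0.83 (adjusted p = 0.00851 in edgeR). A replicate block with only the groups compared, chosen after the data were seen, called 27 of 269 genes between the 2 Gy days and 0 between the 9 Gy days, with 0 members in each, and the block changed no other call of a member.

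Signs turned mostly with scaling. Mapk14 was at 0.45 (day 3) and 0.78 (day 7) with total counts, 0.17 with TMM, 0.20 with the median gene and 0.17 with DESeq2's own size factors (all day 7), and 0.73 at day 3 with counts under 20 set to 20. For 9 against 2 Gy, Mapk14 was at 0.34 with TMM, 0.36 with the median gene, 1.01 with total counts, 0.076 with the abundant housekeeping genes, 0.33 with DESeq2's own size factors and 0.55 with counts under 20 set to 20, and between -0.30 and 0.14 with each sample left out. Of these, 1.01 and 0.55 were called higher (adjusted p = 0.0140 and 0.0327). Irak3 at day 3 was at 0.20 with TMM, 0.26 with the median gene, 0.75 with total counts and 0.22 with DESeq2's own size factors, and at day 7 at 0.25 with total counts. Tirap was at 0.36 and 0.067 and Cd8a at 0.12 and 0.27 with total counts at day 3 and day 7, and Tirap was at 1.20 at day 3 with counts under 20 set to 20. Ms4a1 at day 3 was at 0.37 with TMM, 0.43 with the median gene, 0.91 with total counts, 0.082 with the abundant housekeeping genes, 0.38 with DESeq2's own size factors, 1.69 with counts under 20 set to 20, and between -0.36 and 0.17 with each sample left out. At day 7 it was at 0.39 with total counts. Of the turned values of genes other than Mapk14, those of Tirap (1.20, adjusted p = 1.04e-04) and Ms4a1 (1.69, adjusted p = 3.85e-07) with counts under 20 set to 20 and of Irak3 with total counts (0.75, adjusted p = 0.00134), all at day 3, were called, and Irak3 was called lower at day 3 with counts under 20 set to 20 (-0.58, adjusted p = 0.0140). The cause of each turn beyond the scaling itself was not tested.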
